A study of Mus musculus with 24 samples.

Results

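miR-21 is a microRNA (miRNA), a short RNA that guides a silencing complex to messenger RNAs with matching sites. Its level was followed in mouse muscle stem cells from quiescence through activation after injury. The assay was found by its name, mmu-miR-21, and was 1 of 584 miRNA assays on a pair of real-time PCR cards. It had 1 spot on each card of type A, which holds 375 miRNA assays. The cells came from male C57BL/6 mice of 8 weeks. Quiescent stem cells formed the 0 h group, and activated stem cells were harvested 36, 60 and 72 h after muscle injury. No allele, drug or cell sort is named in the labels. Each of the 4 groups had 3 replicates on each card, and the design text calls them technical, so every p-value below measures technical spread only and does not cover variation between mice.

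Satellite cells, the stem cells of skeletal muscle, rest outside the cell cycle until injury, then divide and give rise to myoblasts. miR-21 is known from many tissues as a miRNA that rises with growth, inflammation and injury, and its gene is known to be transcribed under AP-1 and STAT3. It represses Pdcd4 and Spry1, which restrain growth, and TGF-beta signalling is known from human cells to speed the processing of its precursor.

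The assays were matched to strands by name, and the sequences of those strands are given here. RefSeq places the Mir21a precursor on GRCm38.p6 at chr11:86584067-86584158, minus strand, within the span of the protein-coding gene Vmp1 and with Tubd1 and Ptrh2 as its protein-coding neighbours. Mir21a carries mmu-mir-21 as a synonym, so the assay mmu-miR-21 was read as the 5p strand (the guide) and mmu-miR-21*, by the asterisk convention, as the 3p strand (the passenger). In the precursor of 92 bases, capitals mark the 5p strand at bases 18 to 39 and the 3p strand at bases 56 to 77.
Mir21a hairpin: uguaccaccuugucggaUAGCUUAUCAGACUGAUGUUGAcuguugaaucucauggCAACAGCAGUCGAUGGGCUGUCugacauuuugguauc
In the mature strands below, capitals mark the seed, bases 2 to 8, which pairs with targets.
mmu-miR-21a-5p: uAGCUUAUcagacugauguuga
mmu-miR-21a-3p: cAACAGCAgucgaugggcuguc
mmu-miR-21b: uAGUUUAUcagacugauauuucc
mmu-miR-21c: uAGCUUAUcagacugguacaa
The passenger shares no seed with the guide. Mir21b on chromosome 3 and Mir21c on chromosome 8 are shown because they lie close to the guide in sequence. miR-21c has its seed and its first 15 bases. miR-21b shares the first 3 bases without a break, and its seed AGUUUAU differs from AGCUUAU of the guide in a single base. The letters CAGAC follow the seed in both. Neither miR-21b nor miR-21c has an assay of its own here, and whether the mmu-miR-21 assay also reads them was not tested. Of 1679 mature mouse names in the RefSeq table, 2 had the seed AGCUUAU. The letters CAGAC, which a study of human cells linked to SMAD-aided processing, lie at base 9 of miR-21a-5p and in 28 mature names (1.67%). They were searched in the mature strand as written. Of the 124 assays named as in that table, 4 hold these letters (miR-199a-5p, miR-686, miR-717 and miR-743b-5p), and none could be tested against 0 h.

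miR-21 was low in quiescent cells and high in every activated group. A PCR array gives a threshold cycle (Ct): the fewer cycles a reaction needs to become visible, the more RNA was present. The Ct of miR-21 was 28.86, 28.83 and 28.85 at 0 h and 21.69, 21.70 and 21.82 at 36 h. It was 22.90, 23.02 and 22.90 at 60 h and 24.04, 24.24 and 24.00 at 72 h. The 0 h arrays thus needed more cycles than any later array. The mean Ct of the U6 small nuclear RNA, a loading control with 4 spots on each array, lay between 14.86 and 15.41 on these 12 arrays.

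The level used here is relative to U6, as the array's mean U6 Ct less the miRNA's own Ct, so that a step of 1 up is a doubling at full PCR efficiency. The level of miR-21 was -13.51, -13.43 and -13.48 at 0 h (mean -13.47 ± 0.04, SD, n = 3). At 36 h it was -6.83, -6.83 and -6.90 (mean -6.85 ± 0.04, SD, n = 3). The groups did not overlap, and 36 h held the 3 highest values. At 60 h the level was -7.49, -7.65 and -7.50 (mean -7.55 ± 0.09, SD, n = 3). At 72 h it was -8.92, -9.03 and -8.98 (mean -8.98 ± 0.06, SD, n = 3). Relative to U6 the order was therefore 36 h, 60 h, 72 h and 0 h, with no overlap between any neighbours in that order. In a bulk sample, fewer cells of a type and less RNA per cell cannot be told apart.

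**Figure D1:**
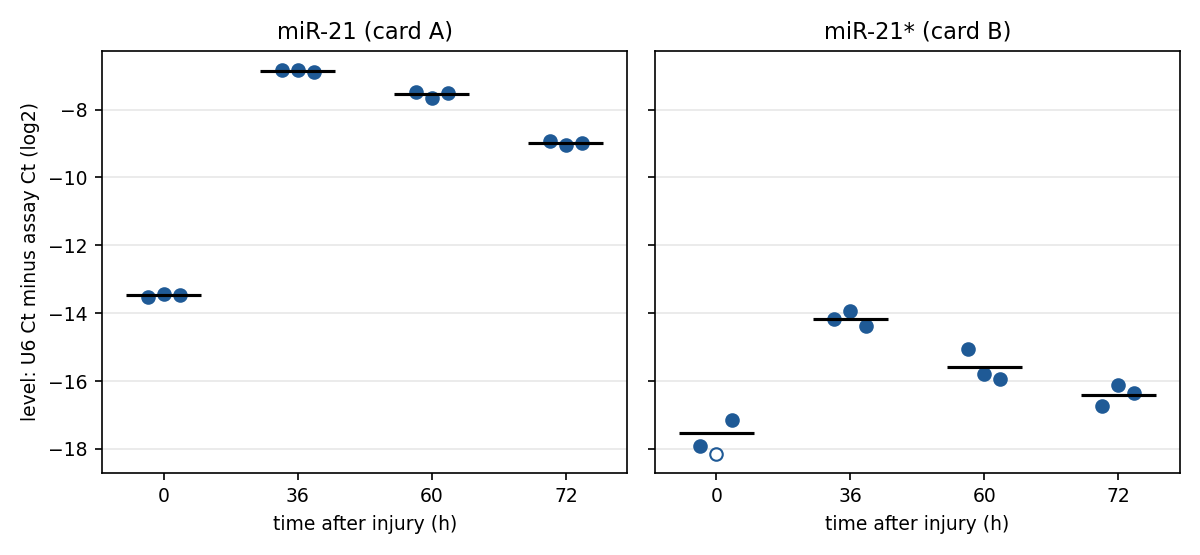
Level of miR-21 (left) and of its passenger strand miR-21* (right) on each array by time after injury, as U6 Ct minus assay Ct on a log2 scale; points are arrays and lines are means over detected arrays. miR-21 sits near -13.47 at 0 h and between -9.03 and -6.83 later, while the open point is the 0 h array on which 1 of the 2 spots of miR-21* had no Ct and which is left out of the mean.

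Against 0 h, miR-21 rose at each later time. It was 98.2-fold higher at 36 h, a log2 change of 6.62 ± 0.06 (SE, adjusted p = 7.45e-14, limma, n = 3 arrays per group). A call required both a 2-fold difference and an adjusted p under 0.05, with p-values adjusted over all tested assays of both cards. At 36 h 44.1% of the 272 tested assays were called higher and 12.1% lower, so a call alone sets miR-21 little apart, but its change was the 5th highest. At 60 h miR-21 was 60.8-fold above 0 h, a log2 change of 5.93 ± 0.06 (adjusted p = 1.5e-13, limma), the 4th highest of 250 tested assays, of which 28% were called higher and 36.4% lower. At 72 h it was 22.5-fold above 0 h, a log2 change of 4.49 ± 0.06 (adjusted p = 6.58e-13, limma), the 6th highest of 244, of which 20.9% were called higher and 46.3% lower. These 3 comparisons share the 0 h arrays. The median change of the tested card A assays was 0.91, -0.49 and -1.37 at 36, 60 and 72 h, so miR-21 stood 5.71, 6.42 and 5.86 above the card's own median. The authors' deposited table gives mean folds of 98.3 at 36 h and 60.8 at 60 h for miR-21.

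Among the activated groups the differences were smaller and hung on the reference RNA. Relative to U6, miR-21 was 0.69 ± 0.06 lower on the log2 scale at 60 h than at 36 h, a 1.62-fold difference with an adjusted p of 1.53e-06 (limma) that missed the 2-fold limit; 49.5% of 279 assays were called lower there. With snoRNA202 and with the global mean of the card the same difference was 0.83 and 0.76, higher at 60 h. From 60 to 72 h miR-21 fell by 1.43 ± 0.06, or 2.70-fold (adjusted p = 1.91e-08, limma), where 35.8% of 265 assays were called lower. It stayed lower at 72 h under every reference, but under 2-fold with the other 4, from 1.47-fold with the global mean to 1.996-fold with Y1. From 36 to 72 h it fell by 2.12 ± 0.06, or 4.36-fold (adjusted p = 1.17e-10, limma), beside 69.3% of 270 assays called lower, whereas the change was 0.047 with snoRNA202 and 0.20 with the global mean. Relative to the median of card A, the change of miR-21 between the later groups was 0.58, -0.56 and 0.17 in the same order of comparisons.

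The rise from 0 h was present under all 5 references. Besides U6 these were the small nucleolar RNAs snoRNA202 and snoRNA135, the Y1 RNA and the global mean of the assays detected on 12 arrays. On card A the references themselves moved against U6: from 0 to 72 h, snoRNA202 by -3.05, snoRNA135 by -0.87 and Y1 by -0.32. On card B, which holds miR-21*, the same RNAs moved by -2.61, -0.35 and 0.72, so Y1 went in opposite directions on the 2 cards. The log2 change of miR-21 ranged over the 5 references from 5.33 to 7.50 at 36 h (40.2-fold to 180-fold), from 5.82 to 8.33 at 60 h (56.4-fold to 322-fold) and from 4.49 to 7.54 at 72 h (22.5-fold to 186-fold). The time of the highest mean level was 36 h with U6, snoRNA135 and Y1, and 60 h with snoRNA202 and the global mean. With Y1 the 36 and 60 h groups differed by -0.15 (adjusted p = 0.155, limma).

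**Figure D2:**
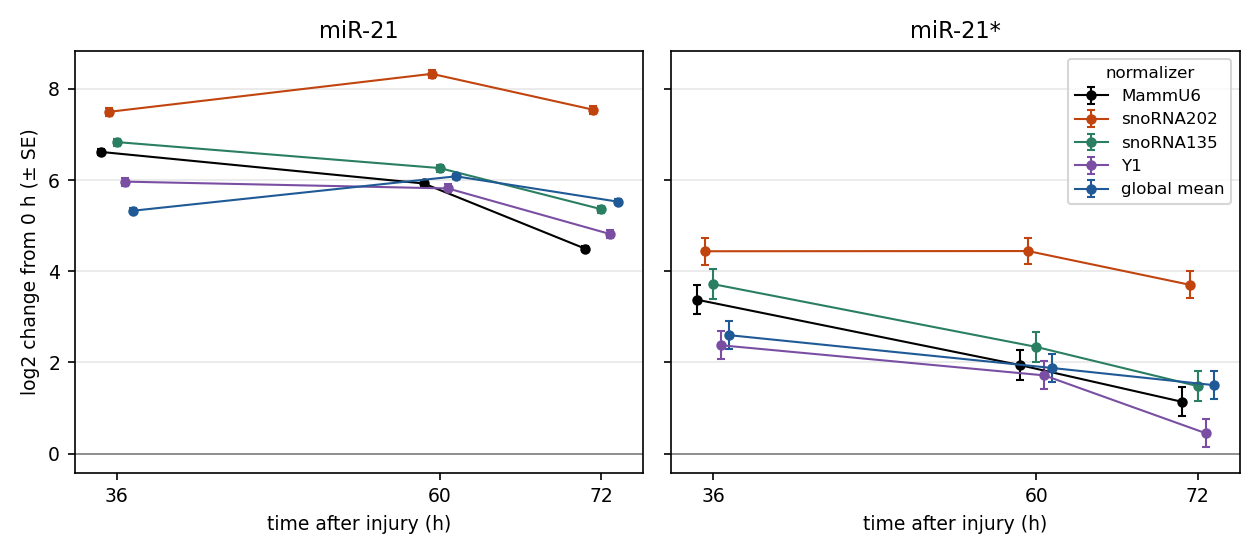
Log2 change from 0 h, with its SE, of miR-21 (left) and miR-21* (right) at 36, 60 and 72 h under 5 references (colours), n = 3 arrays per group except n = 2 at 0 h for miR-21*. Every miR-21 value lies between 4.49 and 8.33, and the lines for snoRNA202 and the global mean peak at 60 h rather than 36 h.

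miR-21 also moved up among the miRNAs of its card. At 0 h it ranked 133rd, 138th and 136th among the 181 to 183 assays detected (Ct below 35) on the 3 arrays, where rank 1 is the highest level. It ranked 48th on each 36 h array (210 to 212 detected), 31st, 34th and 32nd at 60 h (188 to 190 detected) and 42nd on each 72 h array (191 to 195 detected). Ranks do not depend on the reference RNA, and by rank miR-21 stood highest at 60 h, with no overlap between the groups. Its level was 2.63 below the median detected assay at 0 h, and 3.60, 3.66 and 3.17 above it at 36, 60 and 72 h. Its share of the summed linear signal of card A was 0.00679% at 0 h and 0.360%, 0.391% and 0.327% later. Assays differ in PCR efficiency, so a rank or share describes signal and not molecule number.

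Even at its highest, miR-21 did not lead card A, where the highest signal was miR-24 at 0, 36 and 72 h and miR-17 or miR-106a at 60 h. By mean level over assays detected in 3 of 3 arrays, its neighbours at 0 h were miR-362-3p (-13.47 ± 0.16, SD) and miR-361 (-13.49 ± 0.29, SD), which overlapped it. At 36 h they were miR-574-3p (-6.71 ± 0.04, SD) and miR-19a (-7.07 ± 0.04, SD), and neither overlapped it. At 60 h let-7d (-7.45 ± 0.05, SD) and miR-145 (-7.63 ± 0.03, SD) both overlapped it. At 72 h miR-223 (-8.81 ± 0.10, SD) and miR-140 (-9.01 ± 0.06, SD) did so too. miR-21 thus shared its place in the order with its neighbours at 3 of the 4 times.

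**Figure D3:**
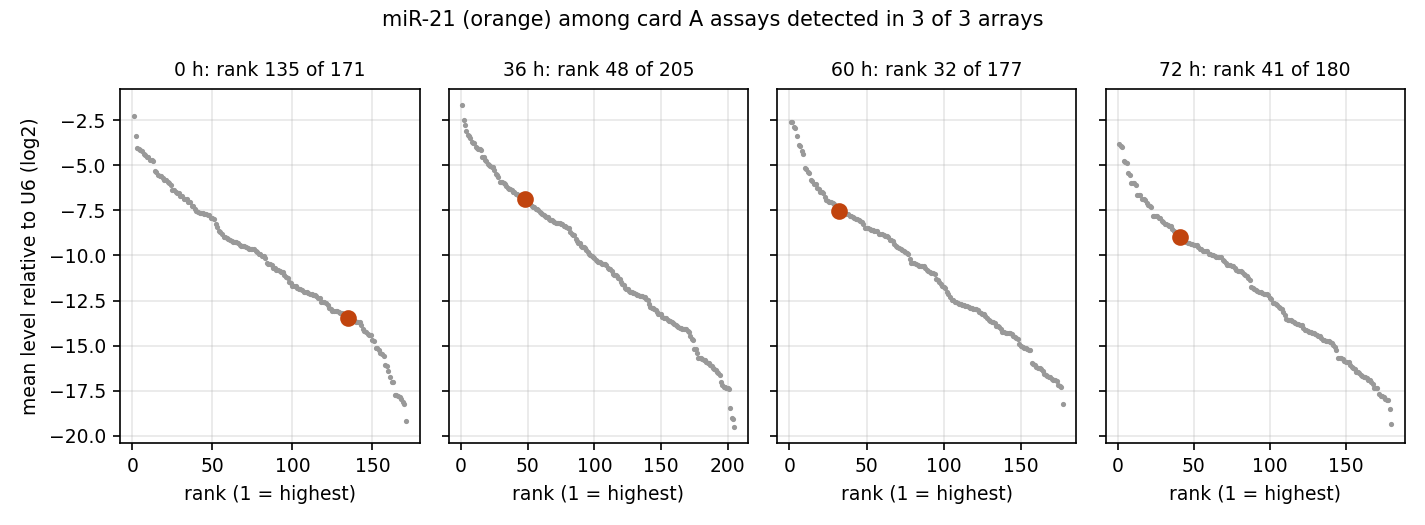
Mean level relative to U6 (log2) of each card A assay detected in 3 of 3 arrays of a group against its rank, with 1 panel per time after injury and miR-21 in orange. miR-21 lies at rank 135 of 171 at 0 h, 48 of 205 at 36 h, 32 of 177 at 60 h and 41 of 180 at 72 h.

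The passenger strand, miR-21*, rose less than the guide. It was measured in 2 spots on each card B array, so its level and that of miR-21 come from different cards, each with its own U6. At 0 h its level was -17.92 and -17.16 on 2 arrays, and the other array had 1 spot without a Ct and was not counted as detected. At 36 h the levels were -14.18, -13.94 and -14.36, at 60 h -15.05, -15.78 and -15.95, and at 72 h -16.73, -16.12 and -16.36. The 4 groups did not overlap, and 0 h was again the lowest. The change from 0 h was 3.38 ± 0.32 at 36 h (10.4-fold, adjusted p = 5.23e-06, limma), 1.94 ± 0.32 at 60 h (3.84-fold, adjusted p = 0.000265, limma) and 1.14 ± 0.32 at 72 h (2.20-fold, adjusted p = 0.00773, limma). All 3 were called, at places 27 of 272, 43 of 250 and 47 of 244 from the highest. Over all tested assays 44.1%, 28% and 20.9% were called higher at these times, so the calls alone set miR-21* little apart. At 72 h the call was lost with Y1 (0.45, adjusted p = 0.195, limma) and, by the 2-fold limit, without 72 h replicate 2 (0.998).

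The change of the guide exceeded that of the passenger by 3.24, 3.98 and 3.36 on the log2 scale at 36, 60 and 72 h, each with a combined SE of 0.33. Over the 5 references this gap ran from 2.73 to 3.59, from 3.89 to 4.20 and from 3.36 to 4.37. The value of 4.37 was that with Y1, which at 72 h had moved against U6 by -0.32 on card A and by 0.72 on card B. The difference between the strands was not itself tested, and at 0 h the passenger lay near the detection limit, with single-spot Ct values from 32.48 to 33.81. Among the later groups miR-21* fell by 1.44 ± 0.29 from 36 to 60 h (adjusted p = 0.00113, limma), but the call was lost with snoRNA202 (0.0044), Y1 (-0.66) and the global mean (-0.72). From 60 to 72 h its change was -0.80 ± 0.29, which was not called, and from 36 to 72 h it fell by 2.24 ± 0.29 (adjusted p = 3.72e-05, limma), with a change of -0.73 with snoRNA202 that was not called. Over all tested assays 49.5% were called lower from 36 to 60 h and 69.3% from 36 to 72 h. For its 2 spots the authors' deposited table gives mean folds of 75.8 and 2066 at 36 h and of 4.24 and 140 at 60 h. That file writes 40 for a missing Ct, and its card B reference constant at 36 h is 16.97 where the mean U6 Ct was 14.71.

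miR-590-5p is known to share the miR-21 seed. It had a Ct below 35 on 1 array only, 34.2 at 0 h, and could not be tested.

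The assays with the most similar course were sought among 151 other card A assays detected on 12 arrays. The highest Pearson correlations of level over the 12 arrays were those of miR-301a (0.994), miR-350 (0.992), miR-301b (0.982), miR-221 (0.980) and miR-20b (0.980). The median over the 151 assays was 0.04, and 20 assays exceeded 0.9. All points share their arrays, their U6 values and a single low group, so these values describe 4 time points rather than 12 independent samples. With levels centred on the global mean, let-7i stood 1st (0.998), where it was 15th relative to U6. Under that centring miR-350 (2nd), miR-221 (3rd) and miR-20b (5th) stayed among the first 5, while miR-301a and miR-301b stood 24th and 30th.

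By size of change the closest were miR-322, miR-19a, miR-20b, miR-221 and miR-20a, with root mean square distances over the 3 changes from 0 h of 0.84, 1.03, 1.10, 1.14 and 1.15. Little further off, the 6th and 7th were miR-142-3p (1.28) and miR-223 (1.29), which stand among the leukocyte markers described below. miR-322, which in mouse myoblasts is known to act on Cdc25a, changed by 6.64, 5.96 and 5.96 at 36, 60 and 72 h, each with an SE of 0.28. It was low at 0 h and spread widely there, at -16.40, -17.75 and -16.86. miR-19a and miR-20a, of the growth-linked miR-17-92 cluster, changed by 4.87, 5.90 and 4.11 and by 4.79, 5.45 and 3.89. miR-20b, of the related miR-106a-363 cluster, changed by 4.88, 5.37 and 3.96. miR-221, which represses the cell cycle inhibitor Cdkn1b, changed by 4.93, 5.52 and 3.55. Since they were chosen for this likeness, their rise is a description. Of the 5, 4 (all but miR-322) had a higher mean at 60 h than at 36 h relative to U6, where miR-21 had the reverse order. The 2 assays of the miR-130 and miR-301 family that led by correlation moved less, by 2.44, 2.35 and 1.68 for miR-301a and by 2.27, 2.48 and 1.81 for miR-301b.

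**Figure D4:**
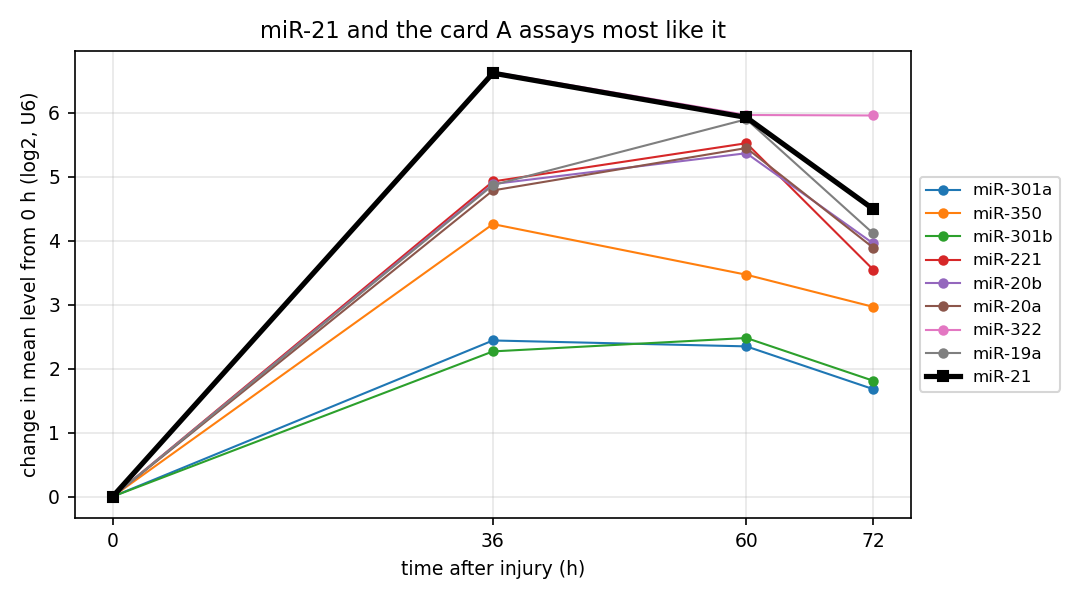
Change in mean level from 0 h (log2, relative to U6) at 36, 60 and 72 h after injury for miR-21 (black squares) and the 8 card A assays closest to it by correlation or by size of change; means over 3 arrays. miR-21 and miR-322 lie together at 36 and 60 h (6.62 and 6.64, then 5.93 and 5.96) and part at 72 h (4.49 and 5.96). The changes of miR-322 have an SE of 0.28, not drawn, so the closeness at 36 and 60 h is within its spread.

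Other miRNAs reported to answer to AP-1, STAT3 or NF-kB were mostly higher at 36 and 60 h relative to U6. Without miR-21, 6 of this list were tested. At 36 h 5 were called higher and 0 lower (median change 2.64, against 0.82 over all tested assays), beside 44.1% of all assays higher and 12.1% lower. At 60 h 4 were higher and 1 lower (median 1.48, against -0.37), beside 28% higher and 36.4% lower. At 72 h 1 was higher and 1 lower (median 0.10, against -0.77), beside 20.9% higher and 46.3% lower. The share called higher at 72 h was near that of the list. miR-146b, a feedback repressor of NF-kB signalling, rose by 5.05 ± 0.05 at 36 h (adjusted p = 1.37e-13, limma), with a change of -0.17 ± 0.05 at 72 h that was not called. miR-221 rose by 3.55 ± 0.09 at 72 h (adjusted p = 3.64e-11, limma) and was the 1 member still higher. miR-181a fell by 3.11 ± 0.13 at 72 h (adjusted p = 2.71e-09, limma), but with snoRNA202 its change was -0.06 and was not called. At 60 h its change of -2.02 ± 0.13 turned to 0.39 with snoRNA202. The count of higher members at 72 h was 5 with snoRNA202, 3 with snoRNA135 and 4 with the global mean. Of all 244 tested assays 166, 65 and 72 were called higher under the same references. Leukocytes also express these miRNAs, and 2 members, miR-146a and miR-155, stand among the leukocyte markers described below, whose summed level changed by 1.69 at 36 h.

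Of the miRNAs linked to fibrosis and TGF-beta, 10 were on the cards besides miR-21, and 7 were tested. At 36 h 6 were called higher and 0 lower (median 2.15, against 0.82 over all tested assays), beside 44.1% of all assays higher. At 60 h 2 were higher and 2 lower (median 0.19, against -0.37), beside 28% higher and 36.4% lower over all assays. At 72 h 0 were higher and 4 lower (median -1.21, against -0.77), beside 20.9% higher and 46.3% lower. The counts at 60 h and the lower calls at 72 h lay near those shares and are no result about the list. At 36 h miR-199a-3p rose by 3.19 ± 0.05 (adjusted p = 2.94e-12, limma) and miR-29b, a repressor of collagens, by 2.93 ± 0.36 (adjusted p = 3.16e-05, limma). At 72 h miR-30c, a repressor of the matrix protein Ctgf, fell by 2.42 ± 0.07 (adjusted p = 2.20e-10, limma) and miR-214 fell by 1.71 ± 0.05 (adjusted p = 2.77e-10, limma); with snoRNA202 they were 0.63 and 1.34 higher. The counts moved with the reference. With snoRNA202 6 were higher and 0 lower at 60 and at 72 h, beside 179 of 250 and 166 of 244 assays higher, and at 72 h 1 was lower with snoRNA135, 2 with Y1 and 1 with the global mean, which also gave 1 higher. Of all 244 assays at 72 h, 85 were lower with snoRNA135 and 79 with the global mean, which called 72 higher. With Y1 the median change over all 244 was -1.04, so the 2 lower members are no result about the list. At 36 h the global mean left 3 higher members in each of the 2 lists and 1 lower member in this one. Of all 272 assays it called 59 higher and 89 lower there. The list shares miR-199a-3p, miR-199a-5p and miR-214 with the fibroblast and smooth muscle markers, whose summed level changed by 0.44, -2.97 and -3.60. The highest of those markers at 0 h was miR-145, which is not on this list.

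**Figure D5:**
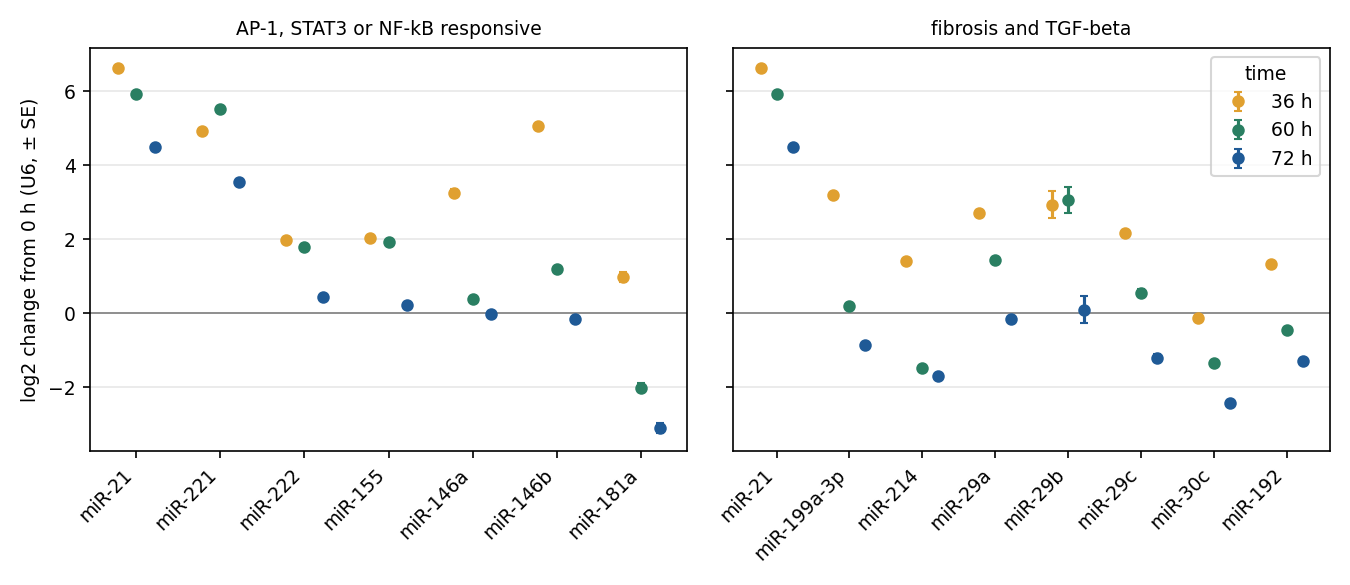
Log2 change from 0 h relative to U6, with its SE, at 36 h (yellow), 60 h (green) and 72 h (blue) for miR-21 and the tested members of the AP-1, STAT3 or NF-kB list (left) and of the fibrosis and TGF-beta list (right), n = 3 arrays per group. At 72 h miR-21 (4.49) and miR-221 (3.55) stand above the other members, of which the highest is miR-222 at 0.44.

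The labelled cell type was set against miRNA markers. All 5 muscle markers (miR-1, miR-133a, miR-133b, miR-206 and miR-489) were detected in every group. Their summed level lay between -4.00 and -3.66 at 0 h, between -3.34 and -3.23 at 36 h and between -1.02 and -0.94 at 72 h. The highest of them, miR-206, had mean levels of -3.86 and -1.03 at 0 and 72 h and made up most of the sum. That sum spans both cards and was taken relative to U6 only. At 0 h the sum of the fibroblast and smooth muscle markers was higher than that of muscle, from -3.23 to -3.11. At 36 h that sum (-2.76 to -2.70) and the endothelial sum (-2.29 to -2.28) were both higher than the muscle sum. At 60 and 72 h the muscle sum was the highest of these. miR-489, known for holding muscle stem cells quiescent, fell by 6.66 ± 0.16 at 72 h (adjusted p = 4.24e-11, limma), while miR-133b rose by 6.11 ± 0.11 (adjusted p = 4.31e-12, limma). Of 6 epithelial markers, miR-203 was detected in every group, miR-200c and miR-205 in 3 of 3 arrays at 36 h, and miR-200a, miR-200b and miR-141 on no array. Their summed level changed by 0.46, -1.68 and -2.96 at 36, 60 and 72 h relative to U6, with the sign turned at 36 h with Y1 (-0.19) and the global mean (-0.83) and at 60 and 72 h with snoRNA202 (0.72 and 0.087).

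The summed level of the leukocyte markers rose with miR-21 at 36 h and lay below 0 h later under every reference but snoRNA202. Their summed level, over 5 of 6 markers detected at 0, 60 and 72 h and 6 of 6 at 36 h, ran from -5.38 to -5.34 at 0 h, from -3.72 to -3.65 at 36 h, from -6.57 to -6.44 at 60 h and from -7.42 to -7.28 at 72 h. Relative to U6 the sum changed by 1.69, -1.14 and -1.96, but with snoRNA202 it was 1.26 and 1.09 above 0 h at 60 and 72 h. With the global mean it changed by 0.40, -0.99 and -0.93. At 0 h the highest of these markers was miR-150, at -5.53, which made up most of the sum, and its change of 0.41 at 36 h was not called. Of the 5 tested markers 4 were called higher and 0 lower at 36 h relative to U6. At 60 h 3 were higher and 1 lower, and at 72 h 2 were higher and 1 lower. Over all assays 44.1%, 28% and 20.9% were called higher at these times and 12.1%, 36.4% and 46.3% lower. Single markers differed: miR-142-3p changed by 8.54, 5.91 and 5.61 and miR-223 by 7.65, 4.06 and 3.81, all called, and both rose more than miR-21 at 36 h, whereas miR-150 fell by 4.21 ± 0.08 at 72 h (adjusted p = 6.93e-12, limma). miR-142-5p was not detected at 0 h. The erythroid marker miR-451 was not detected at 0 h and had a mean level of -13.61 at 36 h. The summed level of the 2 endothelial markers changed by 2.18, -1.78 and -1.94 relative to U6, and with snoRNA202 by 0.63 and 1.10 at the later times. That of the fibroblast and smooth muscle markers (4 of 5 detected) changed by 0.44, -2.97 and -3.60, and by -0.21 with Y1 and -0.85 with the global mean at 36 h. At 0 h miR-145 (-3.41) made up most of that sum, and its change of -0.33 at 36 h was not called. Relative to U6 the other 3 tested markers were called higher at 36 h, beside 44.1% of all assays. These were miR-143 (2.57), miR-199a-3p (3.19) and miR-214 (1.41). At 60 and at 72 h 0 of the 4 were called higher and 3 lower, beside 36.4% and 46.3% of all assays lower. The part of such cells in the change of miR-21 was not tested.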

How the data were processed

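MicroRNAs were measured on 24 TaqMan arrays, 12 per card. Per the file headers, the deposited single-array files hold 1 Ct per spot, empty where none was determined. The authors also deposited tables of Ct, dCt and linear fold change, the latter a ratio to 0 h. The sources used here do not name the software behind the Ct. The labels' last time is 72 h where these tables have day 3.5, and 48 per-sample columns were not used. Detection was a Ct below 35 in all spots of an assay (89 to 212 assays per array); Ct values have no counting depth. An assay was tested with at least 2 detected replicates in both groups, in 1 limma 3.58.1 fit (R 4.3.3) per card over 12 arrays, with Benjamini-Hochberg adjustment over both cards. The script was tested on simulated data. Tables were built with Python 3.11.15 and pandas 2.3.3. Named assays were the miR-21 strands and seed relatives, rank neighbours, the 5 nearest by correlation and by distance, and the largest changes of each list. Members and lists were chosen with earlier results of these data known. Alternatives were other references, a Ct limit of 40, fits of 2 groups, a replicate block, replicates left out and mouse assays only.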

Additional observations from a re-analysis of the deposited data

How the results depend on the processing

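Of 84 alternative values of the 6 miR-21 changes, 76 kept their direction and call. The Ct limit, 2-group fits and replicate block could not move the change, so 76 overstates stability. All exceptions came from the reference RNA. From 36 to 60 h, -0.69 became 0.83 (snoRNA202) and 0.76 (global mean). From 36 to 72 h, -2.12 became 0.047 and 0.20 with these. From 60 to 72 h, -1.43 fell under 2-fold with snoRNA202 (-0.79), snoRNA135 (-0.90), Y1 (-0.997) and the global mean (-0.56). With snoRNA202, miR-21* changed by 0.0044 from 36 to 60 h and by -0.73, no longer called, from 36 to 72 h, and the changes of miR-181a and miR-214 at 60 h (0.39 and 0.93) and of miR-30c and miR-214 at 72 h (0.63 and 1.34) turned upward. With Y1, miR-21* was not called at 72 h against 0 h (0.45) or at 60 h against 36 h (-0.66), and was called at 72 h against 60 h (-1.27). With the global mean, miR-21* was not called at 60 h against 36 h (-0.72). The 97 assays called from 60 to 72 h became 46 (snoRNA202), 59 (snoRNA135) and 42 (global mean). The rank of miR-21 at 0 h, median 136, was 131 among mouse assays only.

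The split of calls moved with the reference. At 36 h, 120 higher and 33 lower became 180 and 6 (snoRNA202), 75 and 68 (Y1), and 59 and 89 (global mean). At 60 h, 70 and 91 became 179 and 20 (snoRNA202). At 72 h, 51 and 113 became 166 and 24 (snoRNA202), 65 and 85 (snoRNA135), and 72 and 79 (global mean). From 36 to 60 h, 15 and 138 became 94 and 54 (snoRNA202), 46 and 99 (Y1), and 75 and 64 (global mean). From 60 to 72 h, 2 and 95 became 9 and 37 (snoRNA202), 8 and 51 (snoRNA135), and 25 and 17 (global mean). From 36 to 72 h, 11 and 187 became 70 and 70 (snoRNA202) and 76 and 68 (global mean). The cause was not tested. For miR-21*, the most similar assays, the lists and the marker sums other than that of muscle, these alternatives were added after seeing the data.

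Leaving out single replicates gave miR-21 changes of 6.60 to 6.64, 5.90 to 5.98 and 4.47 to 4.52 against 0 h, and of -0.72 to -0.64, -1.48 to -1.40 and -2.15 to -2.10 between later groups. For miR-21* at 72 h against 0 h they gave 0.998 to 1.30, and the call was lost at 0.998, without 72 h replicate 2. Without 0 h replicate 1 or 3, miR-21* had under 2 detected replicates there and no value. The replicate block kept the miR-21 changes at 6.62, 5.93, 4.49, -0.69, -1.43 and -2.12 and changed no miR-21 call. Deviations of same-numbered arrays correlated by -0.27 to 0.36 (card A) and -0.43 to 0.49 (card B), so the numbers were not taken to pair samples. Precision is limited by 3 technical replicates per group and, for miR-21* at 0 h, by Ct values near the detection limit.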
